A study of Oryza sativa with 3 samples.

Results

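The 200 rice loci with the brightest probes in RNA from water-grown roots were examined, out of 29689 loci that carry a probe on the array. On each array, probes were ranked by the median signal of the water channel minus its local background, the ranks of 3 arrays were averaged, and the best probe stood for its locus. The water channel alone therefore chose these loci, and because it is also the denominator of every vanadium-over-water ratio, their own ratios are given here as a description and not as a test. The roots came from 6-day-old seedlings of the cultivar TN-67, exposed either to water or to 1 mM vanadium, and both groups shared age and cultivar. Each of 3 arrays carried the treated RNA in Cy5 (red) and the control RNA in Cy3 (green) of 1 replicate, which the labels call biological. The dyes were never swapped, so dye and treatment cannot be told apart. The series title calls the response early, and no exposure time is given in the labels.

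In any tissue a small set of genes supplies a large part of the messenger RNA. In growing plant roots these commonly serve protein synthesis, the cytoskeleton, water transport across the vacuolar membrane, central carbon metabolism, methyl-group supply for the cell wall and detoxification. Vanadium is a transition metal whose anion resembles phosphate and inhibits plasma membrane proton pumps. The signal of a microarray probe depends on how well the probe binds as well as on how much transcript there is, so a bright probe is a ranking by signal and not a measured number of molecules.

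Of 41889 gene probes, 29259 to 31918 exceeded background clearly in water and 31278 to 32243 did under vanadium, by the scanner software's own mark. No spot was saturated. Markers of green shoot tissue and of grain storage proteins lay far from the brightest loci: the best of 8 such loci took place 11097 in the water channel. Of 3 loci listed as root markers, a root-specific transcript took place 93, the silicon influx channel place 969 and a root-specific pathogenesis-related transcript place 13050.

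The signals of the 200 loci spanned a narrow range in water. They ran from 69652 to 218870 on replicate 1, from 70074 to 159923 on replicate 2 and from 77711 to 167791 on replicate 3, against medians of 276, 352.5 and 385 over all 29689 loci. The 200 loci held 29.3%, 25.4% and 24.4% of the signal summed over the best probe of every locus in the water channel. In the vanadium channel the same loci held 39.0%, 33.5% and 33.9%. The share was higher under the red dye on each array, and the red signals were more spread out, from 19018 to 295838 on replicate 1, from 39365 to 331921 on replicate 2 and from 38636 to 333758 on replicate 3. Replicate 1 was the brightest array in water for 153 of the 200 loci and the dimmest under vanadium for 174. The spread between arrays was moderate, with a median coefficient of variation of 13.2% and a range from 0.716% to 42.96%.

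**Figure D1:**
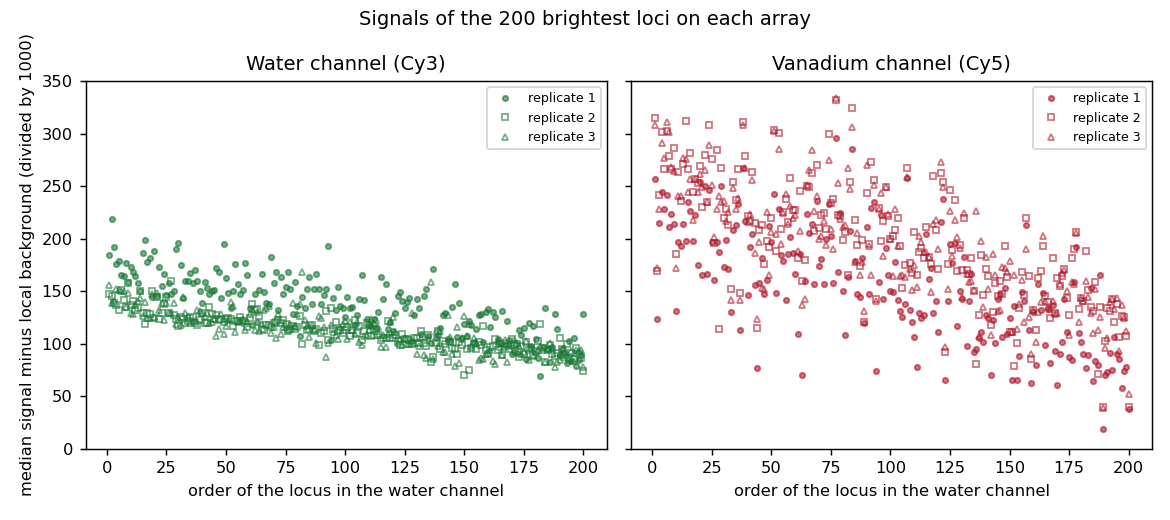
Signal (median minus local background, divided by 1000) of each of the 200 loci, ordered by their mean rank in the water channel; each mark is 1 array. Water signals lie close together between 69652 and 218870, while vanadium signals of the same loci run from 19018 to 333758.

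Membership differed little between arrays, but the same 3 arrays made the choice. The counts are therefore partly fixed by the rule and are no independent check of stability. Of the 200 loci, 163 were among the first 200 on all 3 arrays taken singly, 31 on 2 arrays and 6 on 1 array. The order within the set varied between arrays. Spearman correlations between pairs of arrays were 0.63, 0.46 and 0.71 for the water signals across the 200 loci. These loci are not independent replicates. At the limit, the 3 last loci inside had mean ranks of 217.0, 217.3 and 220.0, and the 3 first loci outside had 221.3, 223.0 and 223.3. The limit thus cuts through loci of nearly equal mean rank. The last locus inside ran from 74432 on replicate 2 to 128699 on replicate 1. Whether the order of these 6 loci would hold on other arrays was not tested.

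The kinds of probes differed from the array as a whole. Among the 200, 97 loci (48.5%) were represented by a probe designed on a sequenced cDNA, 98 (49.0%) by a probe on a gene prediction joined with an EST (a short transcript read), and 5 by a prediction alone. Over all loci the shares were 69.0%, 23.4% and 7.59%. In the next 200 loci by signal, places 201 to 400, they were 66.5%, 32.5% and 1.00%. By chromosome, 33 of the 200 lay on chromosome 3 (16.5%, against 12.2% of all loci), 20 on chromosome 12 (10% against 5.86%) and 5 on chromosome 10 (2.50% against 5.35%). Adjacent places in the genome were rare, with 7 pairs of members separated by at most 1 other locus of the array.

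The files do not pair locus numbers with gene names, and the reference table holds symbols without these numbers. Functions are therefore given for 16 of the 200 loci only, as families recalled from general knowledge, and the other 184 are described by rank and counts. For 11 of the 16, the recalled symbol lay in the reference table within 1 Mb of where the locus number placed it. For 4 no symbol was found, which concerns methionine synthase, adenosylhomocysteinase, the root-specific marker and 1 of 2 alpha-tubulins. For the UDP-arabinopyranose mutase the position was further off. The 3 elongation factor loci were matched to 1 shared symbol. The check concerns position only and does not show which locus number carries a symbol. The 16 loci comprised 3 of elongation factor 1-alpha, which brings aminoacyl-tRNA to the ribosome, 2 of alpha-tubulin, the subunit of microtubules, and 3 enzymes of the methionine cycle (methionine synthase, adenosylmethionine synthetase and adenosylhomocysteinase), which feeds methyl groups to lignin and other acceptors. There were 2 glycolytic enzymes, fructose-bisphosphate aldolase and glyceraldehyde phosphate dehydrogenase. The remaining 6 were a glutathione transferase, a tonoplast aquaporin, a 14-3-3 protein, a chitinase, a UDP-arabinopyranose mutase of cell wall synthesis and the root-specific marker.

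The locus listed as a glutathione transferase, an enzyme family that couples glutathione to reactive compounds, held place 2. Its water signals were 218870, 145438 and 138948 on replicates 1, 2 and 3, and its vanadium signals were 123722, 168941 and 172108. Replicate 1 was the highest in water and the lowest under vanadium. The locus carried 6 probes, all with a mean rank of 86.3 or better among 41889 probes, so every probe of this locus placed it among the brightest. In the red channel it took place 130, the lowest red place among the first 20 loci.

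The tonoplast aquaporin, a water channel of the vacuolar membrane, held place 30 and also had 6 bright probes, with mean ranks from 51.7 to 436. Its best probe read 195378, 116728 and 125580 in water and 173071, 220089 and 235646 under vanadium. It was the only one of 14 listed aquaporins among the 200. The elongation factor loci at places 71, 110 and 183 are neighbours on chromosome 3 and near-identical copies, so their probes may read each other's transcripts and the 3 places are uncertain as separate loci. The best of them read 168111, 120200 and 105568 in water and 180842, 222840 and 202211 under vanadium.

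None of 12 listed metallothioneins, small metal-binding proteins, was among the 200, and the brightest of them took place 489. Listed chaperones, antioxidant enzymes, ubiquitins and proton pumps were also outside, with best places of 225, 277, 224 and 332. Among listed glycolytic and fermentation loci, 2 of 14 were inside, and the median place of that list was 402.5.

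Several members carried a bright probe whose other probes were dim. Of the 200 loci, 157 (78.5%, against 73.7% of all loci) had a single probe, so nothing else on the array checks their place. The other 43 had several. For 25 of the 43, the second-brightest probe was also within the first 1000 of 41889 probes, for 4 it lay between ranks 1000 and 10000, and for 14 it lay beyond rank 10000. In 6 of these 14 it was not well above background on all arrays in either channel. Over the second probes of all 43 loci, the median mean rank was 592 and the dimmest lay at 36979. For the loci with a second probe beyond rank 10000, these arrays do not back the description as an abundant transcript.

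**Figure D2:**
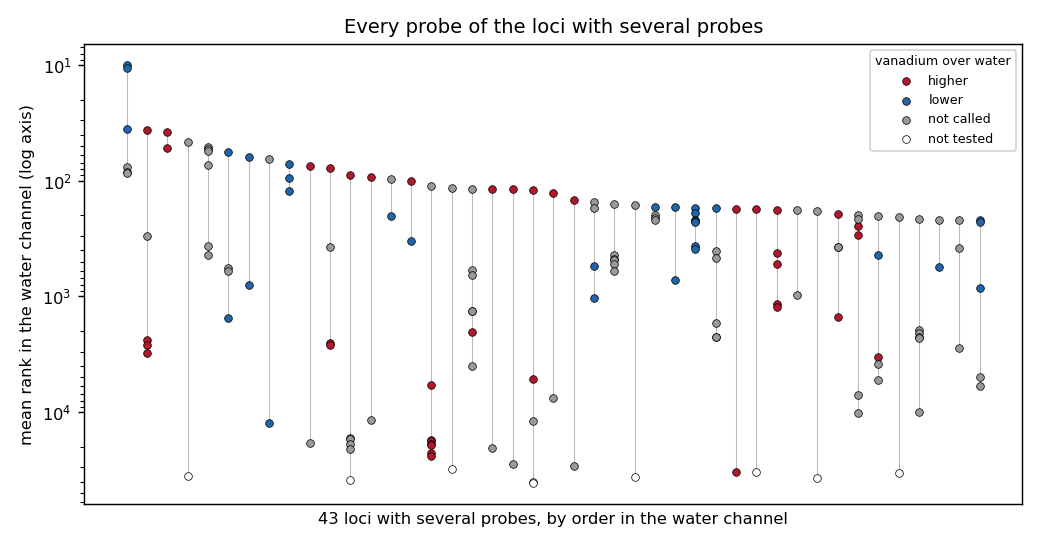
Mean rank in the water channel (log axis, brightest at the top) of every probe of the 43 loci with several probes, each locus being 1 column; colour gives the call of the probe-level test of vanadium over water. For 14 loci the second-brightest probe lies beyond rank 10000, while the glutathione transferase at the left has 6 probes at mean ranks of 86.3 or better.

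Chitinase, an enzyme that cleaves chitin and belongs to the defence proteins, is an example among the loci with a listed role, although its second probe lay within rank 10000. One of its 8 probes had a mean rank of 112, with water signals of 118224, 122440 and 109653. Its second probe had a mean rank of 5882, with water signals of 4394, 2553.5 and 4153, and the other 6 lay between 17361 and 24067. The probes also differed in response, as given below with the ratios.

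The red channel held nearly the same set. Ranked in the same way, 181 of the 200 loci were also among the 200 brightest of the vanadium channel. The overlap was 85 of 100 for the first 100 loci of each channel, 29 of 50 and 10 of 20, so the set was shared more fully than its leading places. The brightest locus in water, read by a single probe, gave 184006, 146936 and 156012 in water and 256694, 314568 and 308470 under vanadium, and took place 4 in red. The place 1 of the red channel was Os03g0201300, which held place 77 in water.

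The 19 members that left the first 200 in red mostly moved by a short way, to a median place of 222. Only 2 went beyond place 400. Of the 19, 17 were represented by cDNA probes. They included 6 of the 16 loci with a listed role: the aldolase, the adenosylmethionine synthetase, the adenosylhomocysteinase, the 14-3-3 protein, the UDP-arabinopyranose mutase and 1 alpha-tubulin. The 19 loci that replaced them came from a median place of 220 in water, and 18 of them from within the first 400. The exception came from place 1051. It read 20830.5, 14644 and 14742 in water and 90374, 121986 and 135176 under vanadium. Its log2 ratio was 2.74 ± 0.11 (SE, n = 3 arrays). It is no member, and it was picked for its vanadium signal, the numerator of that ratio, so the ratio is a description with no test.

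The level of the members' ratios depended on the scaling. After loess normalization, 118 of 200 members were called higher under vanadium and 12 lower, and the remaining 70 were not called (limma, adjusted p under 0.05, n = 3 arrays). Of all 21351 loci tested, 29.4% were called higher and 21.3% lower. Since the rule used the denominator of these ratios, nothing is read from the members' counts against those shares. The median log2 ratio of the members was 0.28, against 0.02 over all loci tested and 0.02 over places 201 to 400. It was 0.29, 0.27 and 0.30 on replicates 1, 2 and 3. Without replicates 1, 2 and 3 in turn, 100, 89 and 66 members were called higher and 6, 7 and 9 lower. The members' median log2 ratio was 0.29 in each case. Over all loci, these fits called 5670, 5330 and 4878 higher and 3654, 3527 and 2906 lower.

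Loess bends each array's ratios to their trend over brightness. With each array centred on its median in place of loess, the members' median was 0.67, against -0.06 over all loci, with 162 higher and 2 lower (all loci: 19.2% and 15.7%). With the log ratio made by the scanner software, it was 0.06, against -0.12 over all loci, with 32 higher and 20 lower (all loci: 23.0% and 32.5%). The share of higher among called members thus moved with the scaling. For places 201 to 400 the scanner log ratio gave a median of -0.06, and median centring gave 0.26. These loci were set apart from the members by the water signal too, so this is a description only. No member called higher or lower in the main loess fit was called in the opposite direction under another planned setting. Under every planned setting 32 members were higher and 2 were lower. The matching share over all loci was not computed, so nothing is read from these 2 counts.

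**Figure D3:**
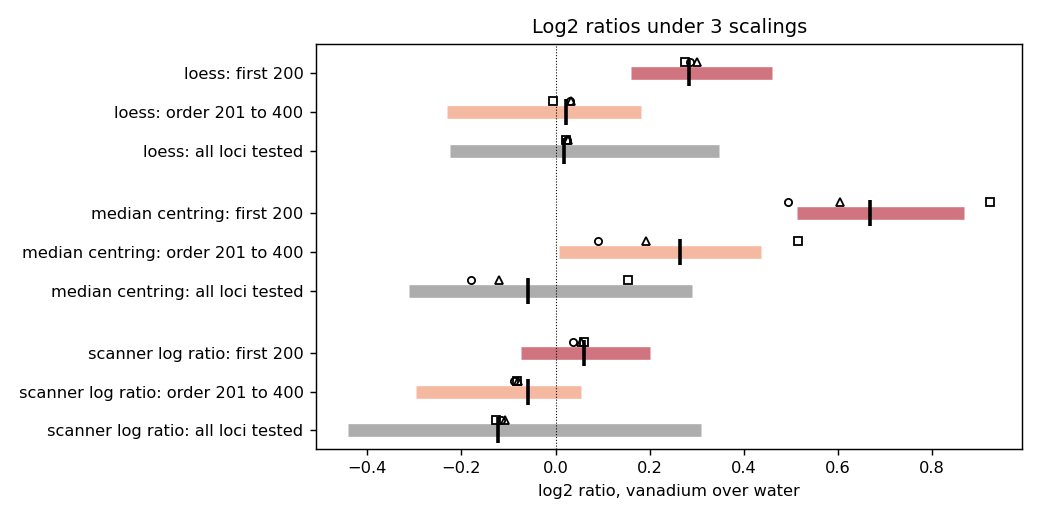
Log2 ratio of vanadium over water for the first 200 loci, for places 201 to 400 and for all loci tested, under 3 scalings: bars span the middle 50% of loci, black lines are medians, and open circles, squares and triangles are the medians of replicates 1, 2 and 3. The median of the first 200 moves from 0.06 with the scanner log ratio to 0.67 with median centring.

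Described along the order, which the water signal set, the level was lower at later places. With loess, the median log2 ratio was 0.37 for places 1 to 50, 0.37 for places 51 to 100, 0.25 for places 101 to 150 and 0.17 for places 151 to 200. The scanner log ratio gave 0.10, 0.10, 0.02 and -0.03 for the same bands. The calls moved with the scaling. Of places 1 to 50, 38 were called higher and 3 lower with loess, beside 29.4% and 21.3% of all loci. With the scanner log ratio, 8 were higher and 5 lower, beside 23.0% and 32.5%. Of the first 20 loci, 18 were called higher with loess and only the glutathione transferase was called lower. As the rule used the denominator, nothing is read from these counts. Of those 20, 18 carried a single probe and 11 were represented by a prediction joined with an EST.

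To read the ratio on an array that had no part in the choice, the 200 brightest loci were also chosen on 2 arrays and read on the remaining one. Those sets shared 192, 194 and 193 loci with the members when replicates 1, 2 and 3 were left out. On the array left out, their median log2 ratio with loess was 0.28, 0.28 and 0.31, against 0.02, 0.02 and 0.03 over all loci there. Positive ratios made up 85.9%, 83.4% and 84.3% of them, against 52.1%, 52.2% and 52.8% of all loci. With the scanner log ratio these medians were 0.04, 0.06 and 0.05, against -0.12, -0.13 and -0.11 over all loci, and 59.1%, 63.8% and 64.1% were positive, against 42.5%, 40.3% and 41.7%. Nearly all loci of these sets are members, whose own medians on the same arrays were 0.04, 0.06 and 0.05 with that ratio. Fixed properties of a probe, its dye response included, are the same on every array and so are not separated from treatment by this reading.

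The second probes of member loci, which did not set the place of their locus, were mostly not called. They are not free of the rule. Each is by selection dimmer in water than the first probe, and water is the denominator of its ratio. The bands of rank used below are set by the water signal too, so these values are a description. Of the 37 second probes tested, 11 fell and 5 rose, and the other 21 were not called (limma, adjusted over all probes, n = 3 arrays), with a median log2 ratio of -0.10. Among second probes of all loci, 26.5% were called higher and 21.2% lower. The scanner log ratio gave 4 higher and 12 lower, and median centring 6 higher and 3 lower. Where the second probe was also within the first 1000 (25 loci), the median log2 ratio of the first probe was -0.15 and of the second -0.17. At the 8 tested loci where it lay beyond rank 10000, the median was 0.41 for the first probe and 0.01 for the second. Members with a single probe had a median of 0.30, with 102 of 157 higher and 3 lower, and members with several probes had 0.18, with 16 of 43 higher and 9 lower. Called shares of all loci split by probe number were not computed, so these counts have no background beside them. Probe class also moved with the ratio: members on predictions with an EST had a median of 0.31 (62 of 98 higher, 1 lower), and members on cDNA probes had 0.26 (52 of 97 higher, 11 lower). Over all loci tested, 31.8% of those on predictions with an EST were higher and 20.8% lower, and 27.0% and 22.4% of those on cDNA probes. The part of probe class and probe number in the ratios was not tested.

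Here and below, the adjusted p of a member's brightest probe comes from the fit over all loci. It is a description and no test of the member, because the rule used the denominator of the ratio. The largest falls and rises were also picked by the ratio itself. The largest falls among the members were at Os07g0287400 and Os11g0147800, on chromosomes 7 and 11. Os07g0287400, which has a single probe, read 114104, 91196 and 82767 in water and 19018, 39702 and 38636 under vanadium. Its channels did not overlap, its log2 ratio was -1.72 ± 0.17 (SE, n = 3 arrays, limma, adjusted p = 3.86e-04), and it moved from place 189 to place 613. Os11g0147800 read 128699, 74432 and 77711 in water and 38267, 39365 and 52218 under vanadium, again without overlap, and moved from place 200 to place 455. Its log2 ratio was -1.20 ± 0.13 (adjusted p = 5.55e-04, limma). The next probes of the locus, with mean ranks of 227 and 850, gave -1.14 and -1.11 and were also called lower, while the dimmest ones, at ranks 4944 and 5994, gave 0.02 and -0.02 and were not called. The next largest fall was -0.66. These were the 2 members past 2-fold lower, beside 1.62% of all loci. All 10 of the lowest ratios among the members were on cDNA probes and 8 were at loci with several probes. All 10 were called lower with the scanner log ratio, 9 with loess and 2 with median centring.

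The largest rises were smaller. Os03g0201300, on chromosome 3, read 152058, 114476 and 118902 in water and 295838, 331921 and 333758 under vanadium, and became the brightest locus of the red channel. Its log2 ratio was 1.01 ± 0.08 (SE, n = 3 arrays, limma, adjusted p = 1.22e-04), and 0.73 with the scanner log ratio. It was the only member past 2-fold higher with loess, beside 8.85% of all loci, while median centring put 23 members past that fold and the scanner log ratio none. Os01g0795800, on chromosome 1, read 151631, 113458 and 117226 in water and 285118, 324462 and 306164 under vanadium, with a log2 ratio of 0.95 ± 0.08. It moved from place 84 to place 2. Both loci have a single probe. The 10 highest ratios ran from 0.75 to 1.01, came from places 38 to 178 in water and took places 1 to 75 in red. All 10 were past the threshold with the scanner log ratio too, and 8 of them were at loci with 1 probe.

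Among members with a listed role, both alpha-tubulins were called lower with loess. The alpha-tubulin at place 159 read 129748, 93803 and 89922.5 in water and 62564.5, 85750.5 and 90408 under vanadium, so the channels overlapped: on replicate 3 the vanadium signal slightly exceeded the water signal, while replicate 1 had the widest gap. Within each array the ratio was -0.82, -0.55 and -0.34 with loess. Its mean log2 ratio was -0.57 ± 0.11 (limma, adjusted p = 0.00605), and all 7 of its probes were called lower, between -0.62 and -0.47. The second alpha-tubulin, at place 37, had -0.27 ± 0.09 (adjusted p = 0.0440), with 1 of its 3 other probes called lower at -0.31 and 2 at -0.06 and -0.05 that were not. Of 11 tested cytoskeleton loci in the recalled list, tubulins and actins, 9 were lower and none was higher with loess (median log2 ratio -0.53). Of all loci, 21.3% were lower with loess. The list had 10 lower with the scanner log ratio, beside 32.5% of all loci, and 4 lower with median centring, beside 15.7%, and neither alpha-tubulin among the members was called with median centring.

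**Figure D4:**
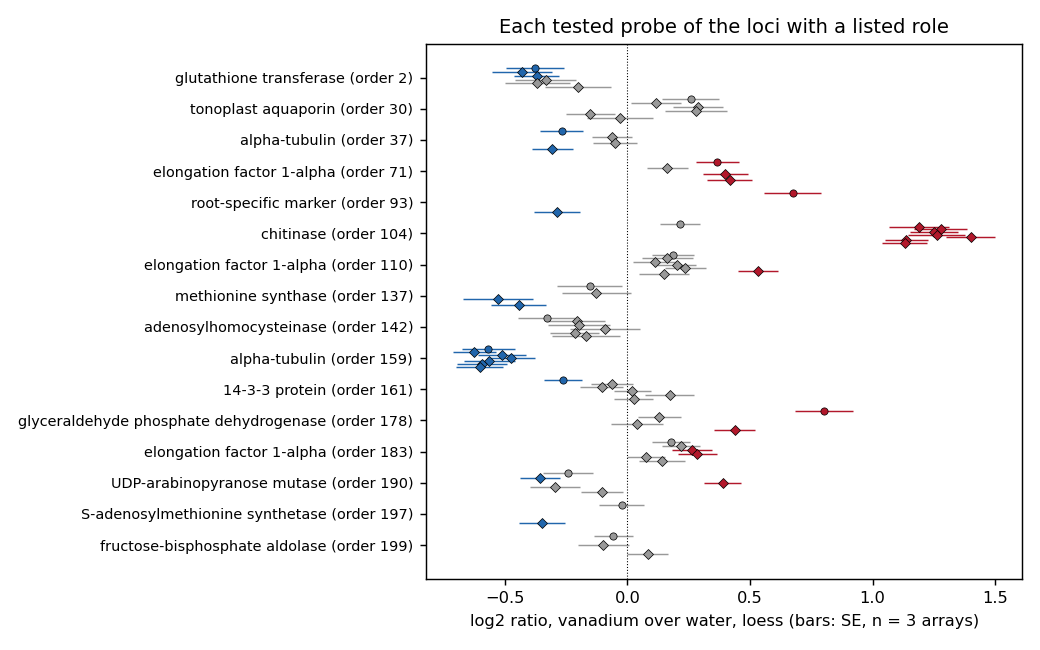
Log2 ratio of vanadium over water (loess) of each tested probe of the 16 loci with a listed role; circles are the brightest probe, diamonds the other probes, bars are the standard error over 3 arrays, and red, blue and grey mark probes called higher, lower or not called. The 7 probes of the alpha-tubulin at place 159 lie together near -0.6, while the brightest chitinase probe at 0.21 stands apart from its 7 others near 1.2.

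The glutathione transferase at place 2 had a log2 ratio of -0.38 ± 0.12 (limma, adjusted p = 0.0386). Its 6 probes gave -0.43 to -0.20, of which 3 were called lower. With the scanner log ratio they gave -0.64 to -0.37, and with median centring its best probe gave 0.02 and was not called.

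The methionine cycle members were not called on their brightest probes with loess. Adenosylhomocysteinase had -0.33 ± 0.12 (adjusted p = 0.0555, limma), methionine synthase -0.15 ± 0.13 and adenosylmethionine synthetase -0.02 ± 0.09. The dimmer probes gave lower values for the last 2: the dimmer pair of methionine synthase probes gave -0.53 and -0.44 and the second probe of adenosylmethionine synthetase gave -0.35, all 3 called lower. Of 6 tested loci of this list, 2 were lower and none higher with loess and with the scanner log ratio, where 21.3% and 32.5% of all loci were lower, and none was called with median centring.

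The tonoplast aquaporin was not called, unlike most listed aquaporins. Its best probe had 0.26 ± 0.12 (adjusted p = 0.113, limma) and did not pass, and its 6 probes lay between -0.15 and 0.29, none of them called. Of the 14 listed aquaporins 12 were lower and none was higher with loess, beside 21.3% of all loci lower, with a median log2 ratio of -0.73. With median centring 10 of the 14 were lower and this member alone of them was called higher. Some aquaporins were recalled only to check positions and lie outside that list. Of these, TIP4-1, also of the tonoplast, was called higher, at 1.16 with loess and 1.02 with median centring. The silicon channel Lsi6 was called lower, at -0.88 with loess, and PIP2-8 was not called, at -0.15. The difference between the member and the other aquaporins was not tested.

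For the elongation factor the 3 members had log2 ratios of 0.37 ± 0.09 (adjusted p = 0.0142, limma) at place 71, 0.19 ± 0.08 at place 110 and 0.18 ± 0.08 at place 183, of which only the first passed. With the scanner log ratio these were 0.08, -0.06 and 0.06 and none passed, and with median centring all 3 were called higher. Over all their probes the ratios with loess ran from 0.08 to 0.53. Of 9 listed translation factors 3 were higher and 1 was lower with loess, none higher and 1 lower with the scanner log ratio, and 4 higher and none lower with median centring. The share higher with loess lay near the 29.4% of all loci.

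The glyceraldehyde phosphate dehydrogenase at place 178 had the highest ratio among members with a listed role when each locus is read by its brightest probe. It read 98209.5, 95830.5 and 96080 in water and 192152, 206240 and 205327 under vanadium. Its log2 ratio was 0.80 ± 0.12 (adjusted p = 0.00216, limma). The next probes, at ranks 373 and 374, gave 0.13 and 0.04 and were not called, and the dimmest, at rank 1512, gave 0.44 and was called higher. The aldolase, the other glycolytic member, had -0.06 ± 0.08 and its 3 probes lay between -0.10 and 0.08, none called. Of 14 listed glycolytic and fermentation loci, 5 were higher and 1 was lower with loess, 4 and 1 with the scanner log ratio, and 5 and none with median centring. Over all loci 29.4%, 23.0% and 19.2% were higher, so the first 2 of these counts lay near the background.

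The root-specific marker gave opposite calls on its 2 probes. The brighter one read 193307, 103309 and 100437 in water and 235123, 255784 and 251013 under vanadium and was called higher, with 0.67 ± 0.12 (adjusted p = 0.00400, limma). The other, at rank 332, read 59519.5, 61381 and 79780 in water and 33289.5, 72722.5 and 84141 under vanadium and was called lower, with -0.29 ± 0.09 (adjusted p = 0.0418 over all probes). Both calls held with the scanner log ratio, at 0.45 and -0.32. This was the 1 locus of the 25 with a bright second probe whose first 2 probes were called in opposite directions.

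The chitinase probes differed in size. The bright probe gave 0.21 ± 0.08 (adjusted p = 0.0672, limma) and did not pass, and its 7 dimmer probes were all called higher, with log2 ratios from 1.13 to 1.40. With the scanner log ratio the bright probe gave 0.01 and the other 7 between 1.14 and 1.41, and with median centring the bright probe was called higher at 0.58. Of the remaining members with a role, the 14-3-3 protein, which binds phosphorylated proteins, had -0.26 ± 0.08 (adjusted p = 0.0291, limma) on its best probe, and its 5 other probes lay between -0.11 and 0.17, none called. The UDP-arabinopyranose mutase had -0.24 ± 0.10 (adjusted p = 0.0885), and its other 4 probes included 1 called lower at -0.36 and 1 called higher at 0.39.

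Within a locus, the first and second probes had the same call at 15 of the 25 loci where both were bright. Their log2 ratios there differed by a median of 0.14 and by at most 0.96, the latter at the root-specific marker. Of the 8 loci tested with a second probe beyond rank 10000, 1 had the same call on both, and the median difference was 0.61. The median standard error of a member's log2 ratio was 0.08. Locus-level values of members with a single probe therefore carry a spread between probes that these arrays do not show for them.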

How the data were processed

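Roots exposed to vanadium or water were compared on 3 Agilent 2-colour arrays, 1 per replicate. Per the file headers, the deposited array files hold spot and background intensity in both channels from Feature Extraction, plus a log10 ratio of its dye-normalized processed intensity. The value table deposited by the authors is in log2. For 100% of 41865 single-spot probes it matched, within 0.001, the log2 ratio of red to green processed intensity, so scale and direction were settled, and with column medians of -0.05, -0.19 and -0.20 it was not centred. For other steps by the authors, the sources used here give nothing.

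Members were the first 200 loci by mean rank of green median signal minus background, spots of a probe averaged. For ratios, median signals were corrected by normexp (offset 50) and normalized by loess within arrays (limma 3.58.1, R 4.3.3), with control spots and feature outliers (1090, 401 and 306 of 45151 spots) at weight 0 and the outliers left out. A probe was kept if well above background on all 3 arrays in red or in green. The brightest kept probe per locus was tested: mean log2 ratio against 0, lmFit and eBayes, 2-sided, Benjamini-Hochberg over 21351 loci, threshold 0.05. Second probes were tested among all kept probes. All 200 members were measured on 3 arrays. The number of arrays limits precision.

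The pairing of channels comes from the shared array: each channel's departures from its mean over arrays correlated at 0.70, 0.58 and 0.72 within arrays and from -0.61 to 0.08 between arrays. Replicate 1 lay on slide 1, replicates 2 and 3 on slide 2. Alternatives covered scaling, background, filters, arrays, slide, pairing and the ranking. The steps were tested on simulated signals. There, loess left a shift in the brightest spots when all arrays shared a dye curve that was set by hand. The members are such bright spots, but the dye curve of the real arrays is not known. The simulation therefore does not tell whether such a shift is present in the members. The level of their ratios is given under 3 scalings.

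The members and lists were chosen with earlier results of these data known. Values are named for the members with the highest ranks, the 10 highest and 10 lowest ratios, the loci at the limit and those in a list. Tested aquaporins among the position anchors are named as well. At most 2 locus numbers that rose and 2 that fell are printed, since the files hold no gene names. The 13 lists hold 113 locus numbers recalled from general knowledge, because the planned description words could not be applied to the reference table (assembly ASM3414082v1). The roles of 3 members (glutathione transferase, chitinase, UDP-arabinopyranose mutase) were recalled after the members were seen, and symbols were respelled as the table gives them after it was read. After the position check, the symbol of an elongation factor 1-beta was moved to another locus number of that family, because its first position was off, and a symbol was added for an aldolase, so the position counts are not independent of the table. Of 148 locus numbers, position anchors included, 109 had a symbol on the right chromosome and 99 lay within 1 Mb of the place interpolated from the others, a limit set after the deviations were seen. In a first run, spots with outlier flags for the local background were left out too. Those flags were dropped after that run was seen, and the first setting is given as an added alternative.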

Additional observations from a re-analysis of the deposited data

How the results depend on the processing

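The members' median log2 ratio moved most with the scaling. With median centring 4109 loci were called higher over all, 1.00% of members were lower, and the members' median log2 ratio was 0.67. With the scanner log ratio 6937 loci were lower over all, 16% of members were higher and 10% lower, and the median was 0.061. The authors' value table gave 7037 lower loci and the same 16%, 10% and 0.061. The held-out medians were 0.49, 0.93 and 0.61 with median centring and 0.037, 0.061 and 0.054 with the scanner log ratio, and 3 second probes were lower with median centring. Without the replicate block that pairs channels by array, 3399 loci were higher and 1508 lower, with 27.0% and 2.50% of members, the same median, and a larger error by construction. Leaving out 1 array gave 4878 to 5670 higher and 2906 to 3654 lower loci over all. Of members, 33.0% to 50.0% were higher, the fewest without replicate 3, and 3.00% to 4.50% lower, the fewest without replicate 1. Each of these fits rested on 2 arrays. Taking 100 loci gave a median of 0.37. Taking 400 loci gave 0.17 with 37.8% higher and 14% lower, beside 29.4% and 21.3% of all loci. Other offsets, filters, background subtraction, the slide block and other rankings kept the members' calls within 1.5 times and their median between 0.27 and 0.29. In an alternative chosen after seeing the data, spots with a background outlier flag were left out too. Then 148 of the 200 members could be tested, with 56.8% higher and 4.05% lower. Over all loci, 6118 were higher and 4396 lower in that fit. The median moved in none of these by over 0.02. Ranks near the limit, and probes whose partners are dim, are where the signal limits what can be read. The causes of these differences were not tested.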
